A study of Drosophila melanogaster with 2 samples.

Results

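The 200 peaks with the highest signal were selected from 7184 optimal peaks of a chromatin immunoprecipitation experiment on CG7556, a Drosophila melanogaster protein tagged with enhanced GFP. Optimal peaks are those that passed the authors' reproducibility step, the irreproducible discovery rate (IDR). Chromatin came from whole transgenic embryos of both sexes, aged 0 to 24 h, in 2 biological replicates that form 1 group, and both carried the same C-terminal GFP fusion. The labels' description gives an antibody against GFP, whereas their antibody field names CG7556. No untagged or second condition was analysed here, so enrichment by the antibody in embryos without the fusion is not known. Whole embryos mix all tissues and stages of embryonic development, and the labels name no promoter for the transgene. The signal is the authors' value for a region, on a scale the sources used here do not state, and read depth is unknown. It ran from 1259 to 4859 among the 200 strongest peaks, with a median of 1681, against a median of 239.6 among the remaining 6984 peaks. These values chose the peaks and are a description only. Just inside the limit lay Lamtor3 at 1264, CG7841 at 1260 and lola at 1259, and just outside l(2)gd1 at 1259, CG44286 at 1258 and CG9328 at 1255. All coordinates are 1-based positions of build dm6 (Drosophila Release 6) on the arms 2L, 2R, 3L, 3R, X and chromosome 4. The 200 peaks are rows of 1 list and not replicates, so they were described by counts and exact intervals, and no test was run.

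A DNA-binding protein that recognises a sequence is usually found where that sequence lies in open chromatin, while proteins that are recruited by others, or that favour open chromatin in general, gather at promoters of many kinds. In fly embryos such open stretches lie upstream of start sites and in enhancers, many of them within introns. The summit of a peak is the position of highest enrichment, and the bases beside it are those most likely to touch the protein or its partners. No function of CG7556 was stated in the sources used here.

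The sequence at the summits was rich in A and T, and in 19 of the 200 peaks a flank held the C-rich word TACGCCC, read away from the summit. The windows below reach 100 bp to either side of the summit and come from the RefSeq copy of Release 6 (dm6), written 5′ to 3′. Capitals mark runs of at least 8 bases that are only A or T. The first is the window of the highest signal, the second holds the C-rich word on both sides, the third is an intronic window of the gene of the GAGA factor, and the last is an A/T-rich extreme with a GC content of 18.9%.
cbt, rank 1, chr2L:481001-481201, plus strand: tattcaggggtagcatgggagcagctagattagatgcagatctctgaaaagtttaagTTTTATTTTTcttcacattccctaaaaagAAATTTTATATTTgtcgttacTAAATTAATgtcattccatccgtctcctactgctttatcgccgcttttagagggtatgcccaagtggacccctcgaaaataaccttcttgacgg
CG14100, rank 10, chr3L:19590520-19590720, plus strand: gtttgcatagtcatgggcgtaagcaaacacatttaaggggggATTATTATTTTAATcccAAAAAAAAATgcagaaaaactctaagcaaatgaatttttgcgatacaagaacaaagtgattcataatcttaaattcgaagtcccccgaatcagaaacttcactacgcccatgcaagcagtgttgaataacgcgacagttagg
Trl, rank 5, chr3L:14759417-14759617, plus strand: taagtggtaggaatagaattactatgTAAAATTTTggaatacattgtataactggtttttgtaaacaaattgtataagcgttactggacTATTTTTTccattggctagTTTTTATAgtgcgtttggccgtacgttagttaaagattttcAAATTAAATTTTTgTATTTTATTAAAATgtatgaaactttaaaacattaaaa
CG18428, rank 59, chr3R:24109078-24109278, plus strand: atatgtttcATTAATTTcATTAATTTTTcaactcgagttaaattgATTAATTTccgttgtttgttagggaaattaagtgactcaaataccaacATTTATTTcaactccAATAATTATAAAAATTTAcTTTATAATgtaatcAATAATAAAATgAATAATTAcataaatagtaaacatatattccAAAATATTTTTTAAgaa

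The C-rich word appears in the stretches below as capitals, read outward from the summit on the strand named, with 20 bases before it and 8 after it. They are shown because the bases around the word also recur from peak to peak.
CG31145, rank 7, chr3R:23669778-23669812, minus strand: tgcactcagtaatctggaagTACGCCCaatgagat
Ugalt, rank 8, chrX:2703944-2703978, plus strand: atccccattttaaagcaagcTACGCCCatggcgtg
CG14100, right of the summit, rank 10, chr3L:19590661-19590695, plus strand: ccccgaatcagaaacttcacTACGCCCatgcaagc
CG14100, left of the summit, rank 10, chr3L:19590526-19590560, minus strand: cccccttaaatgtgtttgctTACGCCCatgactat
amon, rank 44, chr3R:26714431-26714465, plus strand: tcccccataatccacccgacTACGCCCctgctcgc
CG4496, right of the summit, rank 53, chr2L:7188703-7188737, plus strand: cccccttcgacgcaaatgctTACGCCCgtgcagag
CG4496, left of the summit, rank 53, chr2L:7188504-7188538, minus strand: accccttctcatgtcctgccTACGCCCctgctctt
elav, rank 70, chrX:523380-523414, minus strand: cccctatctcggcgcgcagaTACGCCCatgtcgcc
Tcs5, rank 77, chr3L:5139548-5139582, plus strand: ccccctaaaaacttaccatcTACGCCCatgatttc
CG5611, rank 83, chr3R:27636071-27636105, minus strand: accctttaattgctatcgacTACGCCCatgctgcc
CG3009, rank 164, chrX:4667067-4667101, plus strand: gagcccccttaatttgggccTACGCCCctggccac
Hsp27, rank 173, chr3L:9383810-9383844, minus strand: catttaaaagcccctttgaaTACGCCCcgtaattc
Hpf1, rank 191, chr3R:5791671-5791705, minus strand: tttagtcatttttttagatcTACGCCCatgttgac
Lamtor3, rank 198, chr2L:17481177-17481211, plus strand: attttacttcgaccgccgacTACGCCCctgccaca

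Each summit has a flank on either side, here taken from 20 to 140 bp away and read outward, which gave 400 flanks of the 200 strongest peaks and 13968 of the remaining peaks. The word TACGCCC stood in 21 of the 400 flanks when read outward (5.25%, exact 95% interval 3.28 to 7.91%) and in 0 of them when read inward, which allows a share of up to 0.918% (exact upper limit). Among the remaining peaks it stood in 46 flanks outward (0.329%) and 28 inward. Regions below the threshold held it in 0.347% of flanks outward, and 121 bp windows tiled over the 6 arms held it in 0.342%. The high share was thus seen in the strongest peaks. The next 800 peaks, up to rank 1000, held it outward in 8 of their flanks (0.5%) and inward in 1. The search was over all words of 7 letters found in at least 14 of the 400 flanks, 314 in all, and this word was chosen for its ratio to the remaining peaks after the values were seen. Its share among the strongest peaks is therefore a description, and none of the 33 motifs searched from general knowledge includes it.

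The first letter of the 21 matches lay 61 to 133 bp from the summit, with a median of 79 bp, and 20 of them lay between 50 and 110 bp. The matches were at 21 separate places in the genome and belonged to 19 peaks, 17 of them at promoters, and CG14100 and CG4496 had a match on both sides of the summit. Of these 19 peaks, 7 were among the first 50 by signal and 13 among the first 100, including px, CG31145, Ugalt and CG14100. A run of at least 3 C stood within the 20 bases before the word in 14 of 21 matches (66.7%), against 39.1% of 46 matches in the remaining peaks and 23.2% of 138 below the threshold. Likewise, TG followed with 1 base between in 16 of 21 (76.2%), against 50% and 21.7%. The longer pattern, a C run, a gap and then the word and TG, can be read in the stretches of Ugalt, amon and Tcs5 above.

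The next words by the same ratio partly overlapped the leading one. CGCCCCT stood outward in 16 flanks (4.0%) and inward in 0, and GCCCCTG in 15 (3.75%) and 0, against 0.508% and 0.551% of the remaining flanks outward. The next 800 peaks also held these words more often outward, CGCCCCT in 13 flanks against 4 inward and GCCCCTG in 18 against 5. At least 1 of the 4 leading words, CTACGCC included, was found in 34 of the 200 strongest peaks (17.0%), in 27 of the next 800 (3.38%), in 2.28% of all remaining peaks and in 2.62% of regions below the threshold. CCCACTG, a different word and sixth by that ratio, stood outward in 28 flanks (7.0%, 4.70 to 9.96%) and inward in 2. It kept a direction among the remaining peaks too, with 276 flanks outward (1.98%) and 92 inward, and it stood in 0.696% of tiled windows. The median GC content of the flanks was 36.4% in the strongest and in the remaining peaks, 34.7% in the next 800 and 39.7% below the threshold, and its part in these shares was not tested. A match is a string of letters and not a site. Only 155 of 7886 matches to TACGCCC on the 6 arms, both strands counted, lay inside an optimal region (1.97%).

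**Figure D1:**
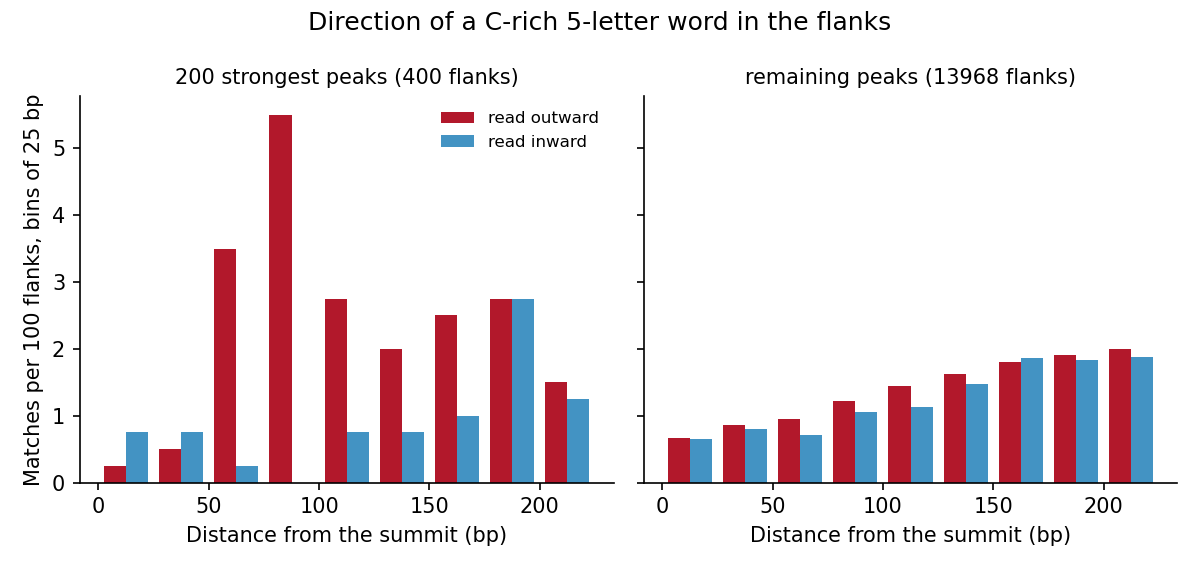
Matches per 100 flanks of the last 5 letters of the leading word (CGCCC), by distance from the summit in bins of 25 bp, read outward (red) or inward (blue), for the 200 strongest peaks and the remaining peaks. Among the strongest, outward matches reach 5.5 per 100 flanks at 75 to 100 bp, where inward matches are at 0, while in the remaining peaks the directions differ by little (1.22 and 1.05).

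GC content was low at the summits and higher on both sides. Windows of 100 bp to either side of the summits of the strongest peaks had a median GC content of 30.8%, from 18.4 to 56.7%. The next 800 peaks had a median of 31.3%, all remaining peaks 33.3%, regions below the threshold 38.3% and tiled windows 42.3%. Of the 200 windows 186 (93%) lay below the median of the tiled windows, against 85.1% of the remaining peaks. In bins of 25 bp the lowest mean, 26.2%, fell just left of the summit, and the highest, 47.3%, lay 325 to 350 bp to the left. Between the centre (27.6%) and the distant flank (41.9%) the difference was 14.3 points, against 13.4 points in the next 800 peaks, 9.01 points in the later peaks and 3.29 points below the threshold. The A/T-rich centre was thus about as deep in the next 800 peaks and shallower in the later ones. Runs of A and T of at least 8 bases covered a median of 20.4% of the window, and the longest run had a median of 14 bp, the same medians as in the next 800 peaks.

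**Figure D2:**
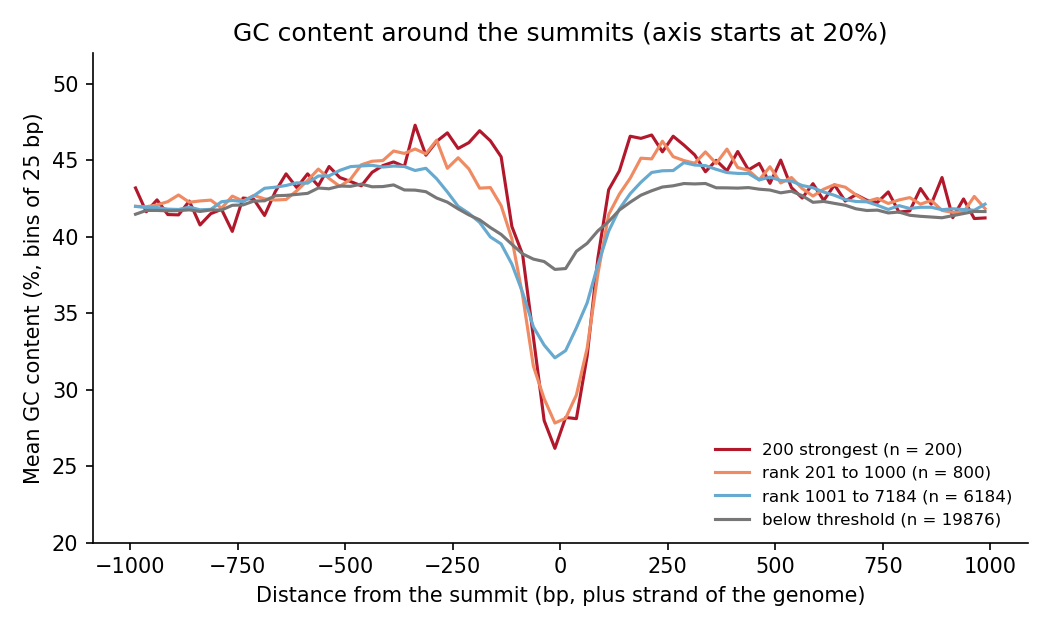
Mean GC content in bins of 25 bp by distance from the summit, for the 200 strongest peaks, the next 800 peaks, ranks 1001 to 7184 and regions below the threshold; the axis starts at 20%. The curve of the strongest peaks falls lowest, to 26.2%, and that of regions below the threshold falls no lower than 37.9%.

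Known short motifs were mostly as frequent as in the remaining peaks or rarer. Of 33 motifs counted on either strand in these windows, 0 were over 1.5 times as frequent as in the remaining peaks. For 32 of the 33, the share of the remaining peaks lay inside the exact interval of the strongest, the exception being the homeodomain word TAATTA in 50 windows (25%, 19.2 to 31.6%, against 19.03% and 12.5% of tiled windows). The word of TATA boxes, TATAAA, stood in 93 windows (46.5%, against 40.1% of the remaining peaks and 21.8% of tiled windows). Both words hold only A and T. In windows of 25 to 35% GC alone, TATAAA stood in 46.2% of the strongest, 47.8% of the remaining and 43.0% of tiled windows. TAATTA stood in 29.2%, 22.9% and 22.4% of them, so the differences from tiled windows were much smaller at like GC content. GAGAG, the core bound by the GAGA factor, stood in 38 (19% against 20.8%). Motifs under 1/1.5 of the remaining peaks' share were those of DRE (TATCGATA, 2 windows, 1.0% against 2.05%), Motif 1 (GGTCACACT, 0 windows against 0.816%), ETS factors (CCGGAA), the KLF GT box (GGGTGTG) and the repeats CACACACA and GAGAGAGA, the last of which contains GAGAG. DRE and Motif 1 mark promoters of broadly active genes. At 120 coding start sites nearest to promoter summits, DRE was found from 100 bp before to 50 bp after the start in 3 (2.5%, 0.519 to 7.13%), against 7.50% of 2548 such promoters of the remaining peaks. Motif 1 was found in 1 (0.833%, 0.0211 to 4.56%), against 5.06%, and TATAAA from 45 to 15 bp before the start in 2, a share of 1.67% against 3.45%.

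Most of the strongest peaks lay at promoters. Of the 200 summits, 131 had an annotated start site no more than 500 bp away (65.5%, exact 95% interval 58.5 to 72.1%), against 39.9% of the remaining peaks. The share fell with rank, to 54.6% in the next 800 peaks, 43.0% at 1001 to 3000 and 35.6% at 3001 to 7184, and regions below the threshold had 25.5%. Introns held 50 further summits (25% against 40.3%) and intergenic sequence 14 (7.0% against 17.4%). Coding exons and 3′ UTRs away from promoters held 0 of 200, which allows a share of up to 1.83% each (exact upper limit). The remaining peaks had 0.158% and 0.802% there, so these counts do not separate the strongest peaks from them. The 5′ UTRs of ph-p and Raf and exons of 3 non-coding genes, lncRNA:CR44619's neighbour lncRNA:Vinr, lncRNA:CR46035 and lncRNA:CR44365, held the rest. Only 26 summits (13.0%) lay more than 2000 bp from every start site, against 36.6% of the remaining peaks, and 43 (21.5%) lay at 501 to 2000 bp.

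**Figure D3:**
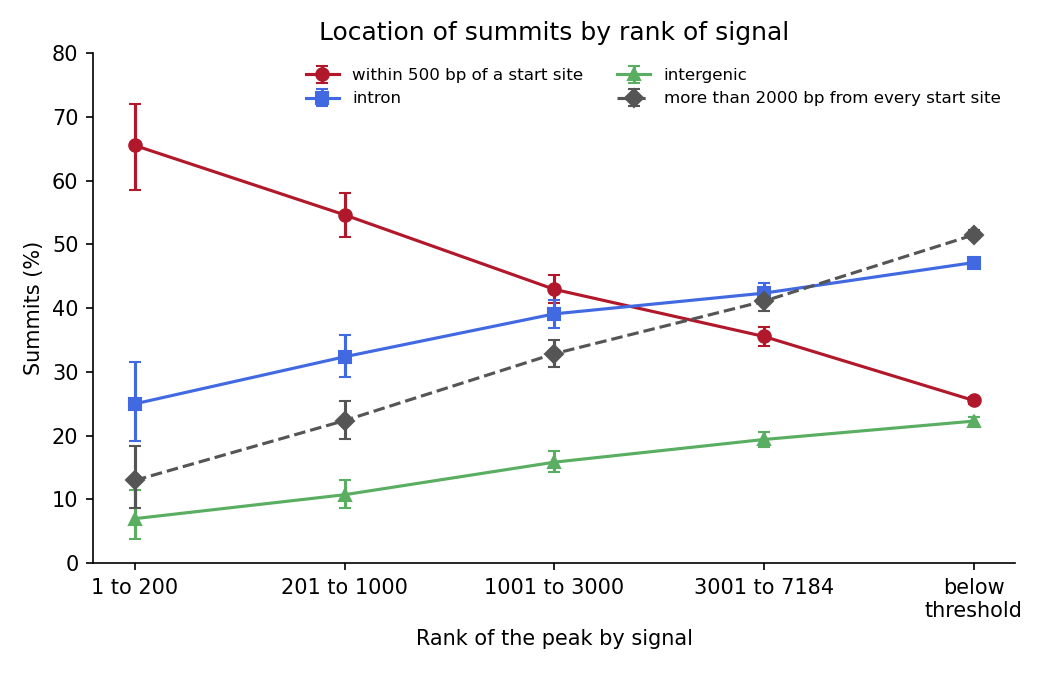
Share of summits within 500 bp of a start site, in introns, in intergenic sequence, and, counted across those classes, more than 2000 bp from every start site, by rank of signal; bars are exact 95% intervals over peaks. The promoter share falls from 65.5% in the 200 strongest to 25.5% below the threshold, and the other shares rise.

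At promoters the summits kept to a narrow band upstream of the start. Among 93 promoter summits with start sites on 1 strand only, 89 lay upstream (95.7%) and the median position was -202 bp from the start, negative being upstream, with quartiles of -284 and -151 bp. Between 80 and 350 bp upstream lay 79 of the 93 (84.9%), against 902 of 1814 (49.7%) of the remaining promoter peaks, of which 79.2% were upstream. Median positions differed little (-172.5 bp in the remaining peaks), so the narrow spread, and not the distance, was what set the strongest apart. Downstream exceptions were Ada2b, a subunit of histone acetyltransferase complexes, at 481 bp, lncRNA:CR44619 at 477 bp, ph-p at 382 bp and lncRNA:CR31840 at 18 bp. The other 38 promoter peaks (29.0%, against 34.8% of the remaining) had start sites on both strands, so 1 summit there served a pair of genes and cannot be given to either.

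**Figure D4:**
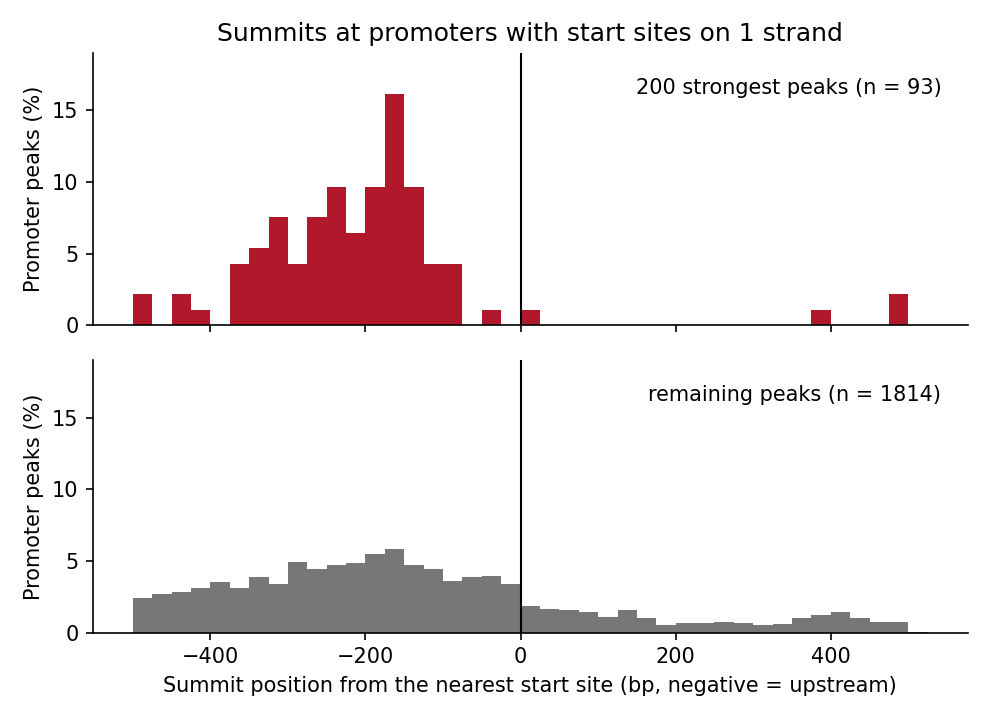
Position of promoter summits relative to the nearest start site in bins of 25 bp (negative is upstream), as a percentage of promoter peaks with start sites on 1 strand, for 93 of the strongest and 1814 of the remaining peaks. Of the strongest 84.9% lie between 80 and 350 bp upstream, and the remaining peaks spread more widely and across the start site.

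The replicates placed the same peaks at the top, which the selection itself favours because the pooled reads are those of both replicates. In replicate 1, 190 of the 200 peaks were among its 200 highest regions, in replicate 2 189, and in both 180. A single peak, in an intron of simj at rank 193, was in the top 200 of neither, with ranks 312 and 255. All but 3 peaks were among the 300 highest of both lists. The signal of replicate 1 was 1.12 times that of replicate 2 at the median of 198 peaks found in both, and in 182 of them (91.9%) the lower of both signals was at least 0.8 of the higher, against 56.7% of the remaining peaks. The SD of the log2 ratio was 0.14 among the strongest and 0.53 among the remaining. Summits in the replicates were a median of 13 bp apart, against 29 bp for the remaining peaks. The next 800 peaks lay between, with 78.9% of ratios in that range, an SD of 0.26 and a median distance of 19 bp. The strongest peaks thus stood at nearly the same base and level in both lists, and this likeness fell with rank. How the signal of each list was scaled is not stated in the sources used here.

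A few peaks differed between the replicates. The promoter peak of lncRNA:CR31840, a non-coding gene, had signals of 698 in replicate 1 and 1057 in replicate 2, ranks 177 and 38. An intronic peak of sbb, which encodes a nuclear regulator of Dpp target genes, had 749 and 998, ranks 152 and 52. At the other end were Rtnl1, which shapes the endoplasmic reticulum, with 752 and 559, CG31668 with 978 and 734, and Fkbp14, a prolyl isomerase gene, with 1463 and 1110. These are single values of each replicate, and no spread within a replicate can be given. Summits 90 and 171, both at ph-p, had a summit within 100 bp in only 1 replicate each. They belong to a single region of 1309 bp with rank 130. Summit 90 was matched in replicate 1 at a shift of 98 bp (signal 846), and summit 171 in replicate 2 at a shift of -5 bp (750). Each replicate thus had a strong summit in this region, and the matching depends on the limit of 100 bp. The part of ph-d, a near-identical neighbour of ph-p, in these values was not tested, so they are uncertain.

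**Figure D5:**
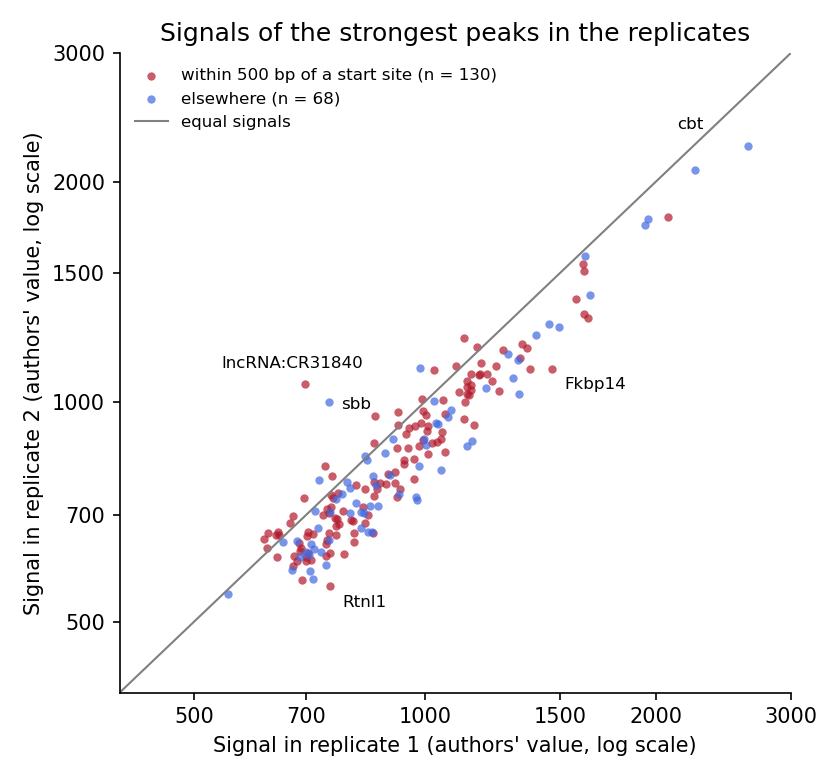
Signal in replicate 1 against replicate 2 on log axes for the 198 strongest peaks found in both, with promoter peaks in red and the others in blue; the line marks equal signals. Most points lie just below the line, at a median ratio of 1.12, and lncRNA:CR31840 and sbb stand above it.

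A gene was counted at a peak when the summit lay inside it or within 500 bp of one of its start sites. This held for 216 of 13945 protein-coding genes (1.55%), for 158 (1.13%) by start site alone, and for 21 of 3951 non-coding genes (0.532%). For comparison, 3749 coding genes (26.9%) were at any optimal peak. The 200 rows formed 192 separate regions and 172 loci when regions within 20 kb were joined. Stretches with 2 or more regions numbered 17 and held 42 peaks. The neighbourhood of tara, a trithorax group gene, and lncRNA:CR45643 held 4 peaks over 14872 bp, with signals of 2051.5, 1842, 1725 and 1463. In simj, which encodes the p66 subunit of a chromatin remodelling complex, 4 intronic summits with signals of 2434, 2046, 2021 and 1275 lay over 17416 bp. Near chinmo, a BTB zinc-finger gene of neuronal timing, 3 intergenic peaks over 10689 bp had signals of 2625, 1654 and 1662. Another group, on X, held lncRNA:Vinr at 3755, lncRNA:CR44619 at 2018 and an intron of Smr, a nuclear corepressor gene, at 1526.

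Several regions held more than 1 summit. In the region of the highest peak, 1955 bp on 2L, the strongest summit lay 1413 bp upstream of cbt with signals of 2637 and 2239 in the replicates. The other summit, 1070 bp away and 343 bp upstream of the start site of cbt, had 751 and 662 (rank 162). In the optimal list the summits had signals of 4859 and 1369. Both summits lay within ush, a gene for a partner of GATA factors, and only the weaker one lay within 500 bp of the start of cbt, a Krüppel-like zinc-finger gene that responds to sugar. The other 6 such regions were at lncRNA:CR44619, simj, CG9663, cnn, tara and ph-p, 15 summits in 7 regions. Summits in CG9663, cnn and one simj region lay 200 to 206 bp apart. No strongest peak was on chromosome 4, which allows a share of up to 1.83% (exact upper limit). It had 13 of the remaining peaks (0.186%). The arms held 46 (2L, 23% against 18.2% of the remaining peaks), 38 (2R, 19% against 17.2%) and 36 (3L, 18% against 22.4%). On 3R there were 44 (22% against 23.3%) and on X 36 (18% against 18.8%). Each share of the remaining peaks lay inside the exact interval of the strongest, so these counts do not separate them.

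The peak of Trl, whose GAGA factor opens promoter chromatin, lay in its own intron, with signals of 1935 and 1745 in the replicates. The HMG-box genes HmgD and HmgZ, whose products bend DNA, overlap and shared 1 intronic summit with 1618 and 1583. Chro and Cp190, which encode proteins of boundaries between chromatin domains, had promoter summits with 1147 and 1090, and with 762 and 693. Of 21 insulator and promoter-binding genes 3 were at a strongest peak (14.3%, exact interval 3.05 to 36.3%, against the 1.55% of all coding genes). Of 13 Sox and HMG genes there were 4 (30.8%, 9.09 to 61.4%): HmgD, HmgZ, Sox14 with 891 and 772 in the replicates, and bbx with 750 and 703. The intervals of these lists lay above 1.55%, and by start site 2 genes of each were left, beside 1.13% of all coding genes. The lists were chosen with earlier results of these data known, so the intervals are a description and no independent support. A shared summit of neighbours counts for each of them, as at HmgD and HmgZ.

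Kdm2, a histone demethylase gene, had an intronic summit 4266 bp from the start with signals of 1328 in replicate 1 and 1025 in replicate 2. Kdm4B, another demethylase gene, had 744 and 597. Within osa, a subunit gene of the SWI/SNF remodeller, 2 summits lay 3818 bp apart, at the start of lncRNA:CR46036 (1369 and 1108) and in lncRNA:CR46035 (1035 and 935), so these could belong to the RNA genes. The gene of the histone methyltransferase trx had 856 and 792, and the kinase gene JIL-1 had 705 and 617. The lists of trithorax and remodelling genes (2 of 31), Polycomb group genes (2 of 21) and histone demethylases and methyltransferases (2 of 17) had exact intervals that included 1.55%. These lists are partial: trx was counted only among the trithorax genes, and tara, simj and JIL-1, also at a strongest peak, were in none. The counts hold for the genes listed and not for all genes of these kinds. In all, 4 of 29 lists lay above it, and 40 of 923 list genes were at a strongest peak. These 4 were also often at an optimal peak of any rank, against 26.9% of all coding genes. Their shares were 57.1% (insulator), 53.8% (Sox and HMG), 62.5% (protein kinase) and 61.5% (EGFR and Ras). Higher shares were thus seen at optimal peaks of any rank as well. Of the insulator genes at any optimal peak 3 of 12 were at a strongest peak, and of the Sox and HMG genes 4 of 7. For protein kinases it was 5 of 40 and for EGFR and Ras genes 3 of 16, against 216 of 3749 for all coding genes. How much of the counts at the strongest peaks goes with peaks of any rank was not tested.

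Long genes are more often spanned by a summit, and the lists differ in gene length. The median length was 10374 bp in the Sox and HMG list, 3424 bp in the insulator list and 14530 bp among protein kinases, against 2166 bp over all genes. The part of length in the counts was not tested. The protein kinase list is partial, and the kinase genes Raf, Lk6, JIL-1 and Mkk4, also at a strongest peak, were not in it. Of its 64 genes 5 (7.81%, 2.59 to 17.3%) were at a strongest peak. They were gish, a casein kinase gene, with 1222 and 1069 in the replicates, Tlk (1322 and 1140), sgg, the glycogen synthase kinase of Wingless signalling (766 and 677), Btk (765 and 656) and p38a (644 and 663). In the EGFR and Ras pathway 3 of 26 genes (11.5%, 2.45 to 30.2%) had a strongest peak, against 1.55% of all coding genes: spi, a ligand, with 710 and 607, aos, which encodes a secreted inhibitor, with 835 and 760, and the kinase gene Raf with summits at 849 and 719 and at 732 and 624. By start site alone 2 of the 26 were left (7.69%, 0.946 to 25.1%), an interval that includes the 1.13% of all coding genes. Counted that way, 4 of the 29 lists lay above 1.13%: the Sox and HMG, insulator, protein kinase and bZIP lists, the last with 2 of 19 (10.5%, 1.30 to 33.1%).

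Of the 29 lists, 6 had no gene at a strongest peak: cytoplasmic ribosomal proteins (0 of 82, exact upper limit 4.40%), homeobox genes (0 of 53), axon guidance and cell adhesion genes (0 of 58), actin and small GTPase genes (0 of 52), the Hedgehog pathway (0 of 19) and the Jak/Stat and Hippo pathways (0 of 24). The upper limit lies above 1.55% for each of these lists, so the counts do not separate them from all coding genes. Optimal peaks of any rank were at 70.7% of the same ribosomal list and 39.6% of the homeobox list, against 26.9% of all coding genes. Ribosomal protein genes were therefore often at a peak, though at none of the strongest.

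Some metabolic and nutrient genes stood among the strongest peaks, in lists made after these values were seen. Enzymes of glucose breakdown and storage had 5 of 20 genes, all with a start site within 500 bp. Gapdh2 had signals of 1126 in replicate 1 and 1221 in replicate 2, Eno (enolase) 1057 and 1004, and Glyp (glycogen phosphorylase) 1061 and 854. Hex-A (hexokinase) had 940 and 833, and Ldh (lactate dehydrogenase) 830 and 718. The 5 summits lay 161 to 213 bp upstream of the starts. Among 31 insulin, TOR and nutrient response genes there were 7, led by Lk6, a kinase of the translation factor eIF4E (1495 and 1267), SLC5A11, a solute carrier gene (1143 and 1022), and Sesn (sestrin, 1125 and 947), which shares its start site and its summit with CG46429. The lipase gene bmm had 728 and 782, REPTOR, a transcription factor held back by TOR, had 801 and 690, wrd, which encodes a subunit of protein phosphatase 2A, had 700 and 605, and Lamtor3, part of the complex that tethers TOR to lysosomes, had 692 and 570. The ferritin subunit genes Fer1HCH and Fer2LCH shared 1 summit between them (990 and 935). These lists were chosen for holding such genes, so their shares measure nothing about the strongest peaks.

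Among other transcription factor genes, Atf3, a bZIP factor, had a promoter summit with 1133 and 1066 in the replicates, and trh, the tracheal bHLH-PAS factor, had 758 and 738. An intronic summit of CG1677 lay 722 bp upstream of brk, the repressor of Dpp targets (825 and 706), and shn, a zinc-finger gene of Dpp signalling, had an intronic summit (716 and 628). RNA regulators included msi, a translational repressor of neural progenitors (1331 and 1147), and elav, a neuronal splicing factor (1022 and 878). Both summits lay upstream of the start, at 238 and 264 bp.

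Beyond the lists, the first 40 ranks held genes of varied roles. Promoter summits of Tina-1 (1612 in replicate 1, 1318 in replicate 2) and of Fkbp14 followed that of lncRNA:CR44339 (1634 and 1303). The next were cu, whose product resembles the deadenylase Nocturnin (1360 and 1185), and CG3961 (1338 and 1200). Further down came gene pairs that share a summit, such as Art3 with mRpS10 (1099 and 1119) and CG1602 with PIG-G, a gene of GPI anchor synthesis (1179 and 1092). Of the 165 coding genes nearest to a strongest peak, 51 (30.9%, 24.0 to 38.6%) carry only a CG number, close to the 32.5% of those nearest to the remaining peaks and below the 43.7% of all coding genes. The strongest peaks were therefore not richer in uncharacterised genes than the rest of the list.

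The regions of the strongest peaks were wide in the optimal list, with a median of 698.5 bp against 488 bp for the remaining peaks. Width did not fall evenly with rank: the median was 545.5 bp in the next 800 peaks, 388 bp at 1001 to 3000 and 556 bp at 3001 to 7184. The value of 556 bp was also the width of 24183 of 30000 pooled regions, so 488 bp is a median over unlike kinds of width. Other optimal regions lay within 10 kb of most strong peaks: 33 of 200 (16.5%) stood alone, against 20.5% of the remaining peaks, whose share lies inside the exact interval of 11.6 to 22.4%. Every matched member of the top 200 had the highest −log10 q value of its replicate list, 3.52 in replicate 1 and 4.28 in replicate 2, so these values gave no order among them.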

How the data were processed

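Anti-GFP chromatin immunoprecipitation was sequenced from 2 replicates of 1 group of embryos, with chromatin sheared to 200 to 800 bp per the labels' protocols. The authors deposited a region list per replicate, a pooled list and an optimal list. Column 7 of each holds the authors' signal value, a further column the authors' −log10 q value, and the last the deposited summit offset, from which summits were placed. The aligner, peak caller, IDR threshold and normalisation were not given in the sources used here, and the input control was not analysed here. Read depth is unknown, and intervals cover the counting of peaks only.

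The 200 rows of highest signal in the dm6 optimal list were set beside the remaining rows and the pooled regions below the threshold. Genes came from Ensembl release 115 (BDGP 6.54) and sequence from RefSeq Release 6. Replicate summits within 100 bp were matched. Intervals are exact Clopper-Pearson 95% intervals (SciPy 1.17.1), and no test was run. All 23 checks on simulated data passed. Named genes follow rank, location class and list membership. Peaks and lists were chosen with earlier results of these data known, and the glycolysis, nutrient, ferritin, PIG and mitochondrial ribosomal lists and the word search after values were seen. Of the list symbols, 20 matched no gene. Alternatives changed the windows, the number of peaks, the replicates used and the merging of regions.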

Additional observations from a re-analysis of the deposited data

How the results depend on the processing

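Of 65 alternatives for the main results, 49 gave values within the set limits and 16 moved. The promoter share was 37.0% with a window of 200 bp (remaining peaks 24.0%) and 79.0% with 1000 bp (50.7%), and the strongest peaks had the higher share in 8 of 8 settings. The distal share was 18.5% with coding start sites only (41.8%) and 6.5% beyond 5 kb (19.5%), the lower share in 7 of 7. Median width was 720.5 bp for the 100 highest peaks, 646 bp for the 400 highest and 595 to 619 bp when either replicate was left out. Motifs over 1.5 times the remaining share numbered 2 with the 100 highest, 3 with merged regions, 1 in windows of 200 bp to either side and 0 to 1 without a replicate. Coding genes at a summit numbered 107 for the 100 highest and 400 for the 400 highest, and list genes 18 and 67. The outward share of TACGCCC, an analysis added after seeing the data, was 5.25% without either replicate, 7.5% for the 100 highest and 2.88% for the 400 highest. No paired analysis was possible because there is only 1 group. The cause of these moves was not tested, apart from those that follow from the wider window or the number of peaks.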

Other observations

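Of the 200 highest regions of replicate 1, 10 matched none of the 200 strongest peaks, and of replicate 2, 11. All 10 of the first had an optimal peak, the lowest at rank 244, and 10 of the 11 had one, the lowest at rank 876.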
